A study of Mus musculus with 34 samples.

Results

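The genes described here are 32 mouse genes that stand near human Alzheimer's disease risk signals or take part in the transport, uptake, release or breakdown of amyloid beta. They were chosen by symbol and not by a threshold on their values, with earlier results of these data known, and 31 of the 32 were listed among the 23951 genes of each expression file. Ms4a4a was the 1 symbol not listed, and its expression was not analysed here. RNA was read in the hippocampus of 20 mice, 1 library per mouse, and in GFAP+ nuclei sorted from the cortex of 7 mice. All animals carried the floxed allele Hdac1f/f. The 4 hippocampal control mice were Hdac1f/f alone, the 5 Hdac1 cKO mice were Hdac1f/f with Nestin-Cre, the 6 5XFAD mice were Hdac1f/f with the 5XFAD transgenes, and the 5 Hdac1 cKO; 5XFAD mice, called compound mice here, carried Nestin-Cre and 5XFAD together. Control and Hdac1 cKO mice were 13 to 14 months old by their labels, and 5XFAD and compound mice 13 months. The GFAP+ nuclei, sorted with antibodies to GFAP and NeuN, came from 3 Hdac1f/f control mice (labelled 1, 3 and 4) and 4 Hdac1f/f, Nestin-Cre mice. Nestin-Cre removes Hdac1 in neurons and astrocytes and leaves it in microglia, by staining in the study. The 5XFAD transgenes are expressed from the neuronal Thy1 promoter.

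Human genetics places many Alzheimer's disease risk genes in a few cell biological routes. ApoE and clusterin are lipoproteins secreted mainly by astrocytes, loaded with lipid by ABC transporters and taken up through receptors of the LDL receptor family, and they bind amyloid beta on the way. A second group acts in microglia, where the receptor CD33, the lipid phosphatase SHIP1 (Inpp5d), the phospholipase PLCG2 and the adaptor ABI3 pass on or damp signals for uptake, under the myeloid transcription factor PU.1 (Spi1). Another group sorts membrane proteins in endosomes, and the proteases of the list either shed membrane proteins (Adam10, Adam17) or degrade amyloid beta itself (Mme, Ide, Ece1).

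The values are FPKM, which scale the fragments of a gene by transcript length and library size. The hippocampal libraries read the 3′ ends of transcripts, so dividing by transcript length leaves levels of different genes in the hippocampus not comparable, and these were compared only between mice. From the steps between low values, the most deeply read of the 20 hippocampal libraries held 3.12 times as many fragments as the least deeply read, and the ratio was 1.45 among the 7 libraries of nuclei. Hdac1 lay between 5.91 and 10.7 FPKM in control mice, between 6.10 and 9.64 in 5XFAD mice, between 2.36 and 3.03 in Hdac1 cKO mice and between 1.15 and 2.52 in compound mice, without overlap between mice with and without Nestin-Cre. In GFAP+ nuclei Hdac1 lay between 9.91 and 22.3 FPKM in control and between 5.80 and 11.6 FPKM in Hdac1 cKO libraries, and the groups overlapped (limma adjusted p = 0.984). Thy1, whose promoter the transgenes carry, lay between 303.4 and 388 FPKM in mice without 5XFAD and between 1563 and 2357 FPKM in mice with it. The 12 microglia markers summed to between 250.1 and 328 FPKM in mice without 5XFAD and to between 562.1 and 1229 FPKM in mice with it, the highest being compound mouse 4. The 10 astrocyte markers summed to between 991 and 1114 FPKM in mice without 5XFAD and to between 1114 and 1338 FPKM in mice with it. In bulk tissue, more cells of a type and more RNA per cell cannot be told apart. The labels do not say whether mice with and without 5XFAD were sequenced together, and they form separate sets of records, so 5XFAD and that set cannot be told apart. The labels also do not say that a library stands for a separate litter or day, so the p-values measure the spread between these mice.

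Promoter sequence is shown for 3 members. Apoe was taken as the member with an adjusted p under 0.05 in 5XFAD against control mice. Inpp5d and Cd33 were added after their values were seen. In compound against Hdac1 cKO mice they were the immune members other than Spi1 that passed a fold change of 1.5 in FPKM + 1 with an unadjusted p under 0.05. Each window runs from 250 bases before to 50 bases after an annotated start site in RefSeq (GRCm38.p6), 5′ to 3′ on the strand of the gene, and capitals mark GAGGAA or its reverse complement TTCCTC, a core bound by ETS factors, the family of PU.1. The windows are chr7:19699139-19699438 on the minus strand for Apoe (the most upstream of 3), chr1:87620062-87620361 on the plus strand for Inpp5d and chr7:43533122-43533421 on the minus strand for Cd33.
Apoe: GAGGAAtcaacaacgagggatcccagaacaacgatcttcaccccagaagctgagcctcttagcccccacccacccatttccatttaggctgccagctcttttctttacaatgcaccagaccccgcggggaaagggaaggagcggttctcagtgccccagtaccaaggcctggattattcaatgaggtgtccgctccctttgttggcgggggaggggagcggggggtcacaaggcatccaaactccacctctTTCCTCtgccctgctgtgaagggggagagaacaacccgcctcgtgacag
Inpp5d: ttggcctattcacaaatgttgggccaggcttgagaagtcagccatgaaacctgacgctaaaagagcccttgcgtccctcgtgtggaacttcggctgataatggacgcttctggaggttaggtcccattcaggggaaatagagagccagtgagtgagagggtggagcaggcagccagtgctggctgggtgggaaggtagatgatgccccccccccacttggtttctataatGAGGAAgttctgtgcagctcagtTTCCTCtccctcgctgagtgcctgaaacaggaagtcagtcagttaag
Cd33: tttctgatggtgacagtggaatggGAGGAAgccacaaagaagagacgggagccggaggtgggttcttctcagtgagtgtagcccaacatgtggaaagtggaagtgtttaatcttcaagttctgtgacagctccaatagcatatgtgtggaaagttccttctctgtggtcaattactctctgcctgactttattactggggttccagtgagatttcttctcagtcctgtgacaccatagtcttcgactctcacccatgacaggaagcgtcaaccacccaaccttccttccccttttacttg
The Apoe and Inpp5d windows held 2 matches each and the Cd33 window 1. On either strand, 28.3% of all 32851 windows of this length held GAGGAA. Windows were matched by symbol for 25 of the 32 members, and 11 of their 37 windows held GAGGAA on either strand, a share near that of all windows. Clu, Bin1, Abi3, Ptk2b, Spi1, Mapt and Ms4a6d are named only. The GC box core GGGCGG was in none of the 3 windows shown but in 24 of the 37 windows of members, the Plcg2 window among them, against 35.7% of all windows on either strand. A match is a run of letters and not a measured site, and no binding was measured here.

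Of the secreted lipoproteins of the list, Apoe rose with 5XFAD in both sets of mice, with and without Nestin-Cre, and Clu rose in compound against Hdac1 cKO mice. Apoe (chr7:20281458-20284515, minus strand, mm9) was at 4121, 3985, 4525 and 3835 FPKM in control mice and at 3856, 4345, 4006, 3023 and 3290 FPKM in Hdac1 cKO mice. In 5XFAD mice it ran from 4902 to 6037 FPKM with a median of 5587, and in compound mice it was at 5281, 5605, 5076, 7357 and 4973 FPKM. Every mouse with 5XFAD lay above every mouse without it. Against control, Apoe rose in 5XFAD mice by 0.43 on the log2 scale of FPKM + 1 (SE 0.088, limma adjusted p = 0.0415), a ratio of means of 1.35 (exact permutation p = 0.00476, the smallest that 6 against 4 mice allow). In the separate comparison of compound with Hdac1 cKO mice it rose by 0.61 (SE 0.12, limma adjusted p = 0.0210, ratio of means 1.53). The adjusted p in 5XFAD mice was close to the threshold: it ran from 0.0314 to 0.173 when each mouse was left out in turn, stayed under 0.05 in 2 of these 10 fits, and the log2 change stayed between 0.40 and 0.48. The call was lost without any 1 of the 4 control mice or of 5XFAD mice 1, 2, 4 and 6. It was also lost without the filter on low values (adjusted p = 0.113), without trend and robust estimation in limma (0.110), with all 4 groups in 1 fit (0.0694) and with the replicate number as a block (0.379). In compound against Hdac1 cKO mice the adjusted p rose to between 0.0502 and 0.0693 without any 1 of Hdac1 cKO mice 1, 4 and 5 or compound mouse 2. There Apoe also lost its call without the filter on low values (adjusted p = 0.184), with quantile normalization (0.0536) and without trend and robust estimation in limma (0.0736). The replicate number as a block ended that call as well.

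Clu (chr14:66587320-66600385, plus strand), which encodes clusterin, was at 841.3, 1103, 1190 and 871.3 FPKM in control mice, and at 893.5, 888.2, 976.8, 777.7 and 812.8 FPKM in Hdac1 cKO mice. It ran from 1080 to 1335 FPKM with a median of 1220 in 5XFAD mice and was at 1196, 1191, 1158, 1546 and 1145 FPKM in compound mice. The lowest compound mouse lay above the highest Hdac1 cKO mouse, whereas control mice 2 and 3 reached into the 5XFAD range. In compound against Hdac1 cKO mice Clu rose by 0.51 (SE 0.092, limma adjusted p = 0.0103). It kept an adjusted p under 0.05 without any 1 of the 10 mice (0.0102 to 0.0333). The call was lost without the filter on low values (0.104), without trend and robust estimation in limma (0.0540) and with the replicate number as a block. In 5XFAD against control mice the log2 difference was 0.29 (SE 0.11, limma adjusted p = 0.375). Markers of the choroid plexus summed to 17730 and 20470 FPKM in control mice 2 and 3, to 13100 in control mouse 4 and to 590.6 in control mouse 1. They summed to 14070 FPKM in compound mouse 1 and to between 62.3 and 269.1 FPKM in the other compound mice. In Hdac1 cKO mice they summed to between 59.9 and 1634 FPKM, and in 5XFAD mice to between 56.5 and 8006 FPKM. All 6 tested markers were higher in compound than in Hdac1 cKO mice, by a median log2 difference of 0.31. All 8 were lower in 5XFAD than in control mice, by a median log2 difference of -1.303. The part of that tissue in the Clu values was not tested. Of the 10 astrocyte markers, 6 were higher in 5XFAD than in control mice, 1 of them at a limma adjusted p under 0.05. In compound against Hdac1 cKO mice 8 were higher, 2 of them under 0.05. All 12 microglia markers were higher in each comparison, by median log2 differences of 0.96 and 1.09. Of these, 7 had a limma adjusted p under 0.05 in each. The part of either cell type in the Apoe and Clu values was not tested.

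**Figure D1:**
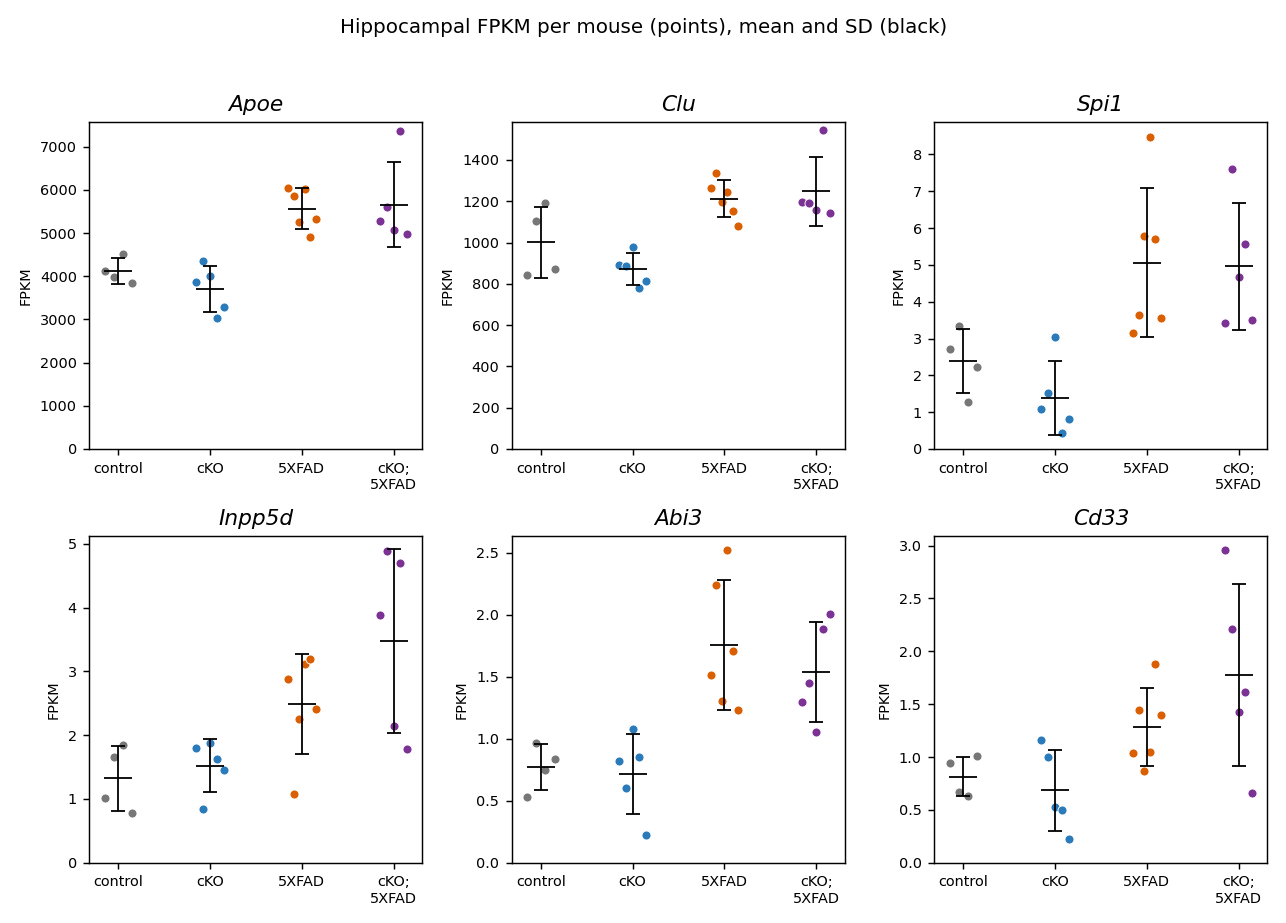
FPKM in each hippocampal library (points) of Apoe, Clu, Spi1, Inpp5d, Abi3 and Cd33 in control, Hdac1 cKO (cKO), 5XFAD and compound (cKO; 5XFAD) mice, with the mean and SD in black and linear axes from 0. Apoe separates the 11 mice with 5XFAD from the 9 without it, and compound mouse 4 is the highest of its group for Apoe, at 7357 FPKM, and for Clu, at 1546 FPKM.

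No lipid transporter or lipoprotein receptor was called in either comparison. Abca1, which exports cholesterol to ApoE, was at 2.47, 1.48, 2.48 and 1.83 FPKM in control mice, at 1.501, 1.69, 1.397, 1.60 and 1.79 FPKM in Hdac1 cKO mice and at 3.07, 2.83, 3.28, 3.01 and 1.91 FPKM in compound mice, with 2.06 to 2.96 FPKM in 5XFAD mice. Its compound and Hdac1 cKO values did not overlap (log2 difference 0.55, SE 0.14, limma adjusted p = 0.105, exact permutation p = 0.00794, the smallest that 5 against 5 mice allow). Abca7 was between 0.363 and 1.57 FPKM in all 20 mice, at 8 to 73 fragments per library by the step sizes, and its log2 differences with 5XFAD were 0.11 (SE 0.19) and 0.04 (SE 0.17). Lrp1 (chr10:126975217-127058204, minus strand), the large endocytic receptor for ApoE and amyloid beta, was at 2.90, 3.79, 4.45 and 3.77 FPKM in control mice, 4.08, 4.07, 4.98, 3.80 and 3.94 FPKM in Hdac1 cKO mice, 3.08 to 5.46 FPKM (median 4.35) in 5XFAD mice and 4.58, 4.04, 4.19, 4.68 and 4.56 FPKM in compound mice. These ranges overlapped, with log2 differences of 0.17 (95% interval -0.17 to 0.51, limma adjusted p = 0.742) and 0.07 (-0.18 to 0.32, adjusted p = 0.897).

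Sorl1 (chr9:41772803-41932380, minus strand) encodes SORLA, a receptor that returns the amyloid precursor protein from endosomes. It was at 23.7, 24.6, 21.4 and 20.5 FPKM in control mice and at 25.7, 28.2, 27.9, 26.7 and 30.2 FPKM in Hdac1 cKO mice. With 5XFAD it ran from 20.9 to 26.6 FPKM (median 24.1), and in compound mice it was at 20.3, 27.7, 26.8, 23.4 and 24.02 FPKM. All 5 Hdac1 cKO mice lay above all 4 control mice (log2 difference 0.29, SE 0.091, limma adjusted p = 0.233, exact permutation p = 0.00794, the smallest possible), whereas compound and 5XFAD mice overlapped at a log2 difference of 0.03 (SE 0.10, limma adjusted p = 0.964). The difference between these 2 effects of Hdac1 loss was -0.26 (SE 0.13, limma adjusted p = 0.583).

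Among the tested members, the largest log2 difference of FPKM + 1 with 5XFAD in both comparisons was that of Spi1, the transcription factor of the microglial group. By ratio of mean FPKM in 5XFAD against control mice, Plcg2 (2.457) and Abi3 (2.277) lay above Spi1 (2.115). Spi1 (chr2:90922547-90955913, plus strand, named Sfpi1 in the mm9 annotation) was at 2.71, 3.35, 1.28 and 2.22 FPKM in control mice, at 1.08, 1.52, 3.03, 0.436 and 0.808 FPKM in Hdac1 cKO mice and at 3.42, 7.61, 4.68, 5.58 and 3.51 FPKM in compound mice, and it ran from 3.16 to 8.48 FPKM (median 4.68) in 5XFAD mice. The step sizes place these values at 3 to 48 fragments per library. Spi1 rose in compound against Hdac1 cKO mice by 1.37 (SE 0.27, limma adjusted p = 0.0183, ratio of means 3.60), with every compound mouse above every Hdac1 cKO mouse. In 5XFAD against control mice the log2 difference was 0.81 (SE 0.25, limma adjusted p = 0.223), and 5XFAD mouse 1 lay below control mouse 2. Without any 1 of Hdac1 cKO mice 1 and 5 or compound mice 2 and 4, the adjusted p in compound against Hdac1 cKO mice rose to between 0.0518 and 0.0581. The call was also lost without the filter on low values (limma adjusted p = 0.176).

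Inpp5d (chr1:89516887-89617082, plus strand) was at 1.01, 1.66, 1.85 and 0.781 FPKM in control mice and at 1.79, 0.840, 1.88, 1.62 and 1.46 FPKM in Hdac1 cKO mice. It ran from 1.08 to 3.20 FPKM (median 2.64) in 5XFAD mice and was at 3.89, 4.89, 2.15, 4.70 and 1.78 FPKM in compound mice. Compound mice 1, 2 and 4 held the 3 highest values of the 20, and compound mouse 5 and 5XFAD mouse 2 lay among the mice without 5XFAD. The log2 differences were 0.57 (SE 0.22, limma adjusted p = 0.370) in 5XFAD against control mice and 0.78 (SE 0.23, limma adjusted p = 0.155) in compound against Hdac1 cKO mice. The second passed a pair of looser thresholds, a fold change of 1.5 in FPKM + 1 with an unadjusted p under 0.05. With each mouse left out, its limma adjusted p ran from 0.0467, without compound mouse 5, to 0.336. Only 1 of these 10 fits was under 0.05.

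Abi3 (chr11:95691386-95703790, minus strand) was at 0.528, 0.964, 0.750 and 0.840 FPKM in control mice, and at 0.819, 0.603, 1.08, 0.849 and 0.225 FPKM in Hdac1 cKO mice. It ran from 1.23 to 2.52 FPKM (median 1.61) in 5XFAD mice and was at 1.29, 1.45, 1.05, 1.89 and 2.00 FPKM in compound mice. All 5XFAD mice lay above all control mice (log2 difference 0.62, SE 0.17, limma adjusted p = 0.183, exact permutation p = 0.00952), and the difference in compound against Hdac1 cKO mice was 0.57 (SE 0.18, limma adjusted p = 0.220). Gngt2, a gene that overlaps Abi3 on the opposite strand, averaged 21.3 ± 5.96 FPKM in control mice (SD, n = 4), 17.7 ± 6.47 in Hdac1 cKO (n = 5), 41.4 ± 9.41 in 5XFAD (n = 6) and 45.9 ± 16.1 in compound mice (n = 5). Whether the counting used strand is not given in the sources used here, so fragments of the 2 genes cannot be told apart.

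Cd33 (chr7:50782826-50788541, minus strand), an inhibitory sialic acid receptor, was at 0.940, 0.674, 0.635 and 1.01 FPKM in control mice and at 1.16, 1.00, 0.525, 0.503 and 0.228 FPKM in Hdac1 cKO mice. It ran from 0.872 to 1.88 FPKM (median 1.22) in 5XFAD mice and was at 2.96, 2.21, 1.43, 1.62 and 0.661 FPKM in compound mice. Compound mouse 5 was again the low mouse of its group. The log2 differences were 0.32 (SE 0.17, limma adjusted p = 0.518) and 0.69 (SE 0.24, limma adjusted p = 0.278), and the second passed the looser thresholds. Plcg2 was between 0.342 and 0.921 FPKM in control mice, between 0.350 and 0.837 in Hdac1 cKO mice, between 0.603 and 1.95 in 5XFAD mice and between 0.217 and 1.34 in compound mice, with log2 differences of 0.55 (SE 0.21) and 0.30 (SE 0.20). Ms4a6d, a membrane protein of myeloid cells, was read at 0 to 27 fragments per library and differed by 0.34 (SE 0.21) and 0.26 (SE 0.37).

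All 6 tested members of this immune group had a positive log2 difference in both comparisons, with medians of 0.56 and 0.63 against -0.01 and -0.01 over all genes tested. Plcg2, 1 of the 6, averaged 0.499 FPKM in control and 1.23 FPKM in 5XFAD mice. It therefore passed the filter of 0.5 FPKM in that comparison only through the 5XFAD mice. Its log2 difference of 0.55 and the 0.57 of Inpp5d set the first median. The microglia markers moved with them: 12 of 12 were higher in each comparison and 7 passed an adjusted p under 0.05 in each, by a median log2 difference of 0.96 and 1.09. None of these markers is a member, and their part in the values of the immune members was not tested.

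Over the whole list, 27 members were tested in 5XFAD against control mice, and 1 of them, Apoe, had a limma adjusted p under 0.05, against 0.667% of 14402 genes called higher. At an unadjusted p under 0.05 there were 9 of 27 members, all higher (5.25% of all genes higher), and 2 members, Abi3 and Spi1, passed the looser thresholds (1.72% higher). The filter on mean FPKM bears on these directions: it left out Mme and Epha1, which without it were lower at unadjusted p = 0.0356 and 0.0319 (log2 differences -0.43 and -0.19), and it kept Plcg2, whose mean was 0.499 FPKM in control and 1.23 FPKM in 5XFAD mice. In compound against Hdac1 cKO mice 3 of 27 members were called, Apoe, Clu and Spi1 (1.42% of 14195 genes higher), 8 had an unadjusted p under 0.05, all higher (6.31%), and 4 passed the looser thresholds, Apoe, Spi1, Cd33 and Inpp5d (2.94% higher). Mme and Rin3 were left out by the filter there. In limma without it, Mme was lower at unadjusted p = 0.00903 (log2 difference -0.36) and Rin3 higher at unadjusted p = 0.0136 (0.37). Without the filter on low values, over 23951 genes, limma called 0 members in either comparison. These comparisons share no mouse, but in both of them 5XFAD and the separate sets of records cannot be told apart. Of the 27 members tested in both, 17 were higher in both, 3 lower in both and 7 in opposite directions, a same sign in 74.1% against 50.8% of 13924 genes. Compound against control mice, which use the same 4 control mice as the first comparison, gave 0 of 27 members called by limma (0.662% of all genes in either direction), 7 with an unadjusted p under 0.05, all higher (5.34% higher), and 2 past the looser thresholds, Inpp5d and Spi1 (2.22% higher), while Mme, left out by the filter, was lower at unadjusted p = 0.0424 without it. The looser thresholds use the fold change of FPKM + 1, which is smaller than that of FPKM at low values. Some members with an unadjusted limma p under 0.05 therefore failed them at larger ratios of mean FPKM. These were Plcg2 (2.46) and Inpp5d (1.88) in 5XFAD against control mice, and Cd33 (2.18) and Abi3 (1.99) in compound against control mice.

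**Figure D2:**
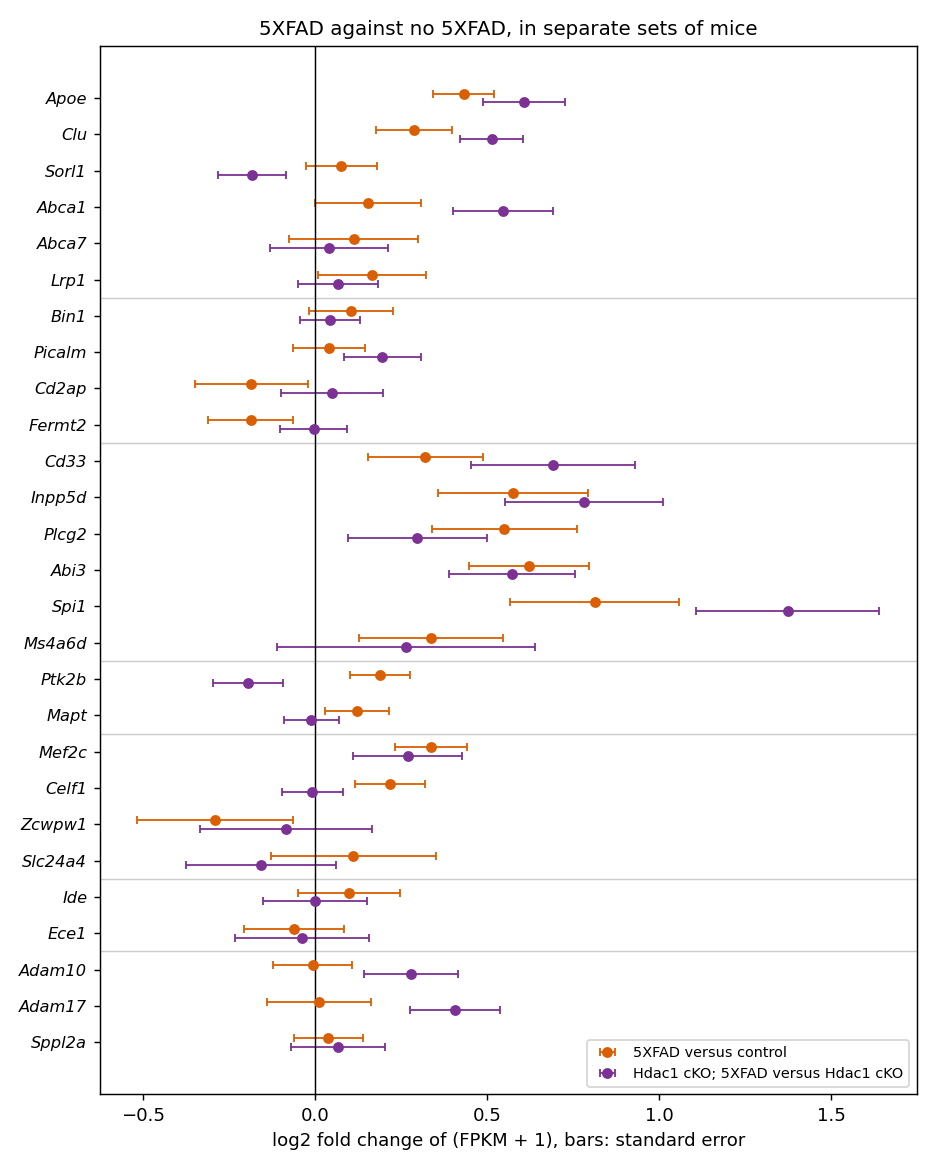
Log2 fold change of FPKM + 1 (points) with its standard error (bars) for the 27 tested members in 5XFAD against control mice (orange) and in compound against Hdac1 cKO mice (purple), which share no mouse. Grey lines divide the roles, in the order lipoprotein and lipid transport, endocytosis, immune signalling, kinase and cytoskeleton, gene regulation, amyloid degradation and shedding. The 6 immune members lie to the right of 0 in both, up to 1.37 for Spi1.

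A mean effect of 5XFAD over both Hdac1 genotypes, fitted in all 20 mice and chosen after the data were seen, called 5 of 27 members, all higher, against 2.06% of 14389 genes called higher and with 10 of 27 at an unadjusted p under 0.05 (6.66% higher). They were Apoe (0.52, SE 0.076, limma adjusted p = 0.000131), Clu (0.40, SE 0.073, adjusted p = 0.00164), Spi1 (1.09, SE 0.19, adjusted p = 0.00121), Abi3 (0.60, SE 0.12, adjusted p = 0.00518) and Inpp5d (0.68, SE 0.16, adjusted p = 0.0250). Apoe, Clu, Spi1 and Abi3 kept their calls without any 1 of the 20 mice. Inpp5d lost it, at adjusted p up to 0.0704, without any 1 of control mice 1 and 4, Hdac1 cKO mouse 2 and compound mice 2 and 4, and also without the filter on low values (0.0754) and with the replicate number as a block (0.0824). Abca1 (0.35, SE 0.097, limma adjusted p = 0.0638) and Cd33 (0.51, SE 0.15, adjusted p = 0.0815) stood just outside the threshold.

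The endocytosis and trafficking genes gave no call with 5XFAD. Bin1 (chromosome 18, plus strand), a membrane-bending adaptor whose neuronal and oligodendrocyte forms differ, was at 75.1, 71.9, 67.9 and 62.4 FPKM in control mice and 75.3, 71.0, 76.4, 81.9 and 76.9 FPKM in Hdac1 cKO mice. It was between 59.8 and 96.5 FPKM (median 74.3) in 5XFAD mice and at 70.1, 76.1, 78.7, 94.4 and 76.0 FPKM in compound mice. The ranges overlapped, and the log2 differences with 5XFAD were 0.11 (95% interval -0.16 to 0.37, limma adjusted p = 0.801) and 0.04 (-0.14 to 0.23, adjusted p = 0.907). Picalm, a clathrin assembly protein, Cd2ap, an actin-linked adaptor, and Fermt2, an integrin activator, differed by between -0.19 and 0.20 in these comparisons, each with a limma adjusted p over 0.5.

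Of the amyloid degrading peptidases, Mme was the only one with groups that did not overlap, read at 1 to 30 fragments per library. Mme (chr3:63099794-63186153, plus strand) encodes neprilysin. It was at 0.946, 0.482, 0.263 and 1.02 FPKM in control mice and at 0.480, 0.554, 0.931, 0.506 and 0.567 FPKM in Hdac1 cKO mice, against 0.0373 to 0.570 FPKM (median 0.193) in 5XFAD mice and 0.117, 0.215, 0.221, 0.248 and 0.479 FPKM in compound mice. The step sizes place this at 68, 100, 47 and 33 fragments in all for the 4, 5, 6 and 5 mice. All Hdac1 cKO mice lay above all compound mice, the closest values being 0.480 and 0.479 FPKM (exact permutation p = 0.00794, the smallest possible, ratio of means 0.421), and in 5XFAD against control mice the groups overlapped (ratio of means 0.349, exact permutation p = 0.0476). The expression filter acts on FPKM and not on fragments, and it kept Slc24a4, read at 1 to 17 fragments per library. Mme fell under it in every comparison with 5XFAD mice. In fits without the filter its log2 differences were -0.43 (SE 0.17, limma adjusted p = 0.703) and -0.36 (SE 0.11, limma adjusted p = 0.399), and the mean 5XFAD effect was -0.39 (SE 0.097, limma adjusted p = 0.0704), so none passed over all genes.

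Ide (chr19:37343233-37412342, minus strand), the insulin degrading enzyme, was at 6.70, 5.56, 7.26 and 7.99 FPKM in control mice, 7.84, 6.82, 6.44, 7.21 and 7.01 FPKM in Hdac1 cKO mice, 5.24 to 8.67 FPKM (median 8.06) in 5XFAD mice and 7.98, 6.92, 4.45, 7.97 and 8.76 FPKM in compound mice. Its log2 differences with 5XFAD were 0.10 (95% interval -0.22 to 0.42, limma adjusted p = 0.851) and 0.00 (-0.33 to 0.33, adjusted p = 1.0). Ece1, the endothelin converting enzyme, differed by -0.06 (SE 0.15) and -0.04 (SE 0.19).

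Neither sheddase gave a call. Adam10 (chr9:70526804-70628036, plus strand), the main alpha-secretase, was at 12.1, 11.01, 11.5 and 13.8 FPKM in control mice and 10.4, 8.19, 8.63, 13.3 and 9.72 FPKM in Hdac1 cKO mice. It ran from 10.2 to 13.8 FPKM (median 11.8) in 5XFAD mice and was at 12.3, 10.9, 14.7, 10.6 and 13.2 FPKM in compound mice, with log2 differences with 5XFAD of -0.01 (SE 0.11, limma adjusted p = 0.992) and 0.28 (SE 0.14, limma adjusted p = 0.512). Adam17, a sheddase of cytokines and receptors, was lowest in Hdac1 cKO mice, at 2.36, 2.41, 2.55, 3.25 and 2.72 FPKM, against 4.02, 4.21, 2.91 and 3.44 FPKM in control mice and 4.22, 3.51, 3.64, 3.38 and 4.51 FPKM in compound mice. Compound and Hdac1 cKO mice did not overlap (log2 difference 0.41, SE 0.13, limma adjusted p = 0.219, exact permutation p = 0.00794), and 5XFAD and control mice differed by 0.01 (SE 0.15). The difference between the 2 5XFAD effects was 0.39 (SE 0.19, unadjusted p = 0.0458, limma adjusted p = 0.548). Iah1, which overlaps Adam17 on the opposite strand, averaged 27.3 FPKM in control and 23.6 FPKM in Hdac1 cKO mice. It averaged 21.8 FPKM in 5XFAD and 23.4 FPKM in compound mice. As with Abi3, fragments of these overlapping genes cannot be told apart. Sppl2a, an intramembrane protease of lysosomes, differed by 0.04 (SE 0.10) and 0.07 (SE 0.14).

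Mapt (chr11:104092704-104193404, plus strand), which encodes tau, was at 105.6, 111.5, 108.2 and 108 FPKM in control mice and 118.4, 114.9, 135.3, 105.7 and 120.8 FPKM in Hdac1 cKO mice. It ran from 98.8 to 128.1 FPKM (median 124.3) in 5XFAD mice and was at 108.4, 121.2, 119, 115.7 and 125.4 FPKM in compound mice. Its log2 differences with 5XFAD were 0.12 (95% interval -0.08 to 0.32, limma adjusted p = 0.678) and -0.01 (-0.18 to 0.16, adjusted p = 0.988). Ptk2b, the calcium-activated tyrosine kinase PYK2, was higher by 0.19 (SE 0.086, limma adjusted p = 0.457) in 5XFAD against control mice and differed by -0.19 (SE 0.10, limma adjusted p = 0.554) in compound against Hdac1 cKO mice. The difference between these effects was -0.38 (SE 0.13, unadjusted p = 0.00723, limma adjusted p = 0.394).

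Among the members with roles in gene regulation, RNA and ion transport, the neuronal and microglial transcription factor Mef2c was at 25.2 to 29.2 FPKM in control mice and 30.0 to 40.4 FPKM in 5XFAD mice without overlap (log2 difference 0.34, SE 0.11, limma adjusted p = 0.243). The difference in compound against Hdac1 cKO mice was 0.27 (SE 0.16, limma adjusted p = 0.614). Celf1, an RNA binding protein, differed by 0.22 (SE 0.10) and -0.01 (SE 0.089), Zcwpw1 by -0.29 (SE 0.23) and -0.08 (SE 0.25), and the ion exchanger Slc24a4 by 0.11 (SE 0.24) and -0.16 (SE 0.22). Pilra overlaps Zcwpw1 on the opposite strand and averaged 14.6 FPKM in control and 16.1 FPKM in 5XFAD mice, so their fragments cannot be told apart.

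Rin3, Epha1 and Cass4 were under the filter in every hippocampal comparison. Rin3, an endosomal guanine nucleotide exchange factor, was read at 0 to 3 fragments per library in mice without 5XFAD, in all 7 in control and 3 in Hdac1 cKO mice. It had 0 to 10 per library in mice with 5XFAD, in all 30 in 5XFAD and 22 in compound mice. Listed at 0 were 4 of 5 Hdac1 cKO mice, 1 control mouse and 1 compound mouse. Compound and Hdac1 cKO values overlapped at 0 (exact permutation p = 0.0476), and 5XFAD and control values overlapped above 0 (exact permutation p = 0.1), and without the filter limma gave a mean 5XFAD effect of 0.28 (SE 0.080, adjusted p = 0.146). Epha1, an ephrin receptor, had at most 6 fragments in any library, in all 10 in control and 3 in 5XFAD mice, which overlapped (ratio of means 0.164, exact permutation p = 0.0190), and Cass4, a docking protein of focal adhesions, at most 11. Zyx overlaps Epha1 on the opposite strand and averaged 16.05 FPKM in control and 16.26 FPKM in 5XFAD mice, so their fragments cannot be told apart. Exact tests were run for all 31 listed members in each comparison and those printed are not adjusted for their number.

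**Figure D3:**
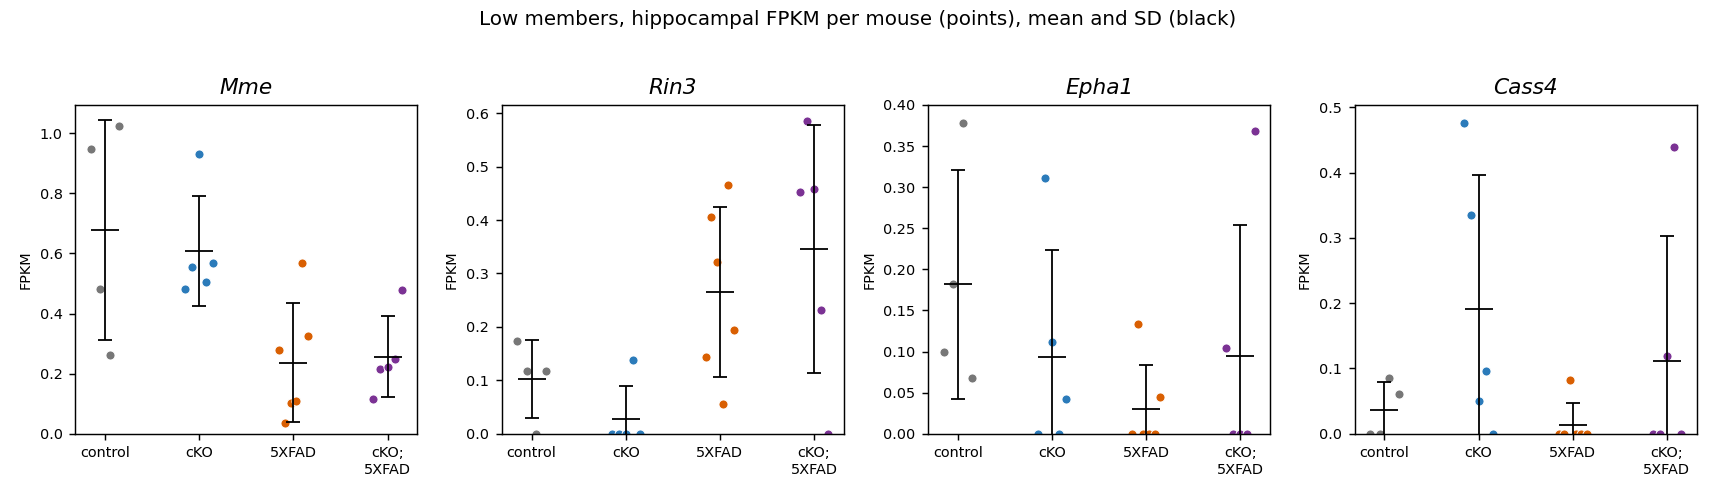
FPKM in each hippocampal library (points) of Mme, Rin3, Epha1 and Cass4, which fell under the expression filter, with the mean and SD in black and the lower bars clipped at 0. Mme lies at 0.570 FPKM or below in all mice with 5XFAD and reaches 1.02 FPKM without it, with overlap, and Rin3 exceeds 0.173 FPKM only in mice with 5XFAD.

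Other genes of the same routes were taken from a list of 66 chosen by hand. In 5XFAD against control mice 7 of 52 tested genes had a limma adjusted p under 0.05, all higher (0.667% of all genes higher), and 11 of 51 in compound against Hdac1 cKO mice, all higher (1.42%). Trem2, the microglial lipid receptor, averaged 16.03 FPKM in control and 84.2 FPKM in 5XFAD mice (log2 change 2.35, SE 0.19, limma adjusted p = 3.68e-05), and 18.3 FPKM in Hdac1 cKO and 107.4 FPKM in compound mice (2.44, SE 0.18, adjusted p = 1.48e-05). Its adaptor Tyrobp rose by 1.94 (SE 0.16) and 2.40 (SE 0.19). The lysosomal proteases Ctsd (1.29 and 1.77), Ctss (1.25 and 1.75) and Ctsh (1.05 and 1.37) were the other 3 of the 5 largest in each comparison, and no mouse with 5XFAD overlapped a mouse of its comparison group for these 5 genes.

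No member was called with loss of Hdac1. In Hdac1 cKO against control mice, 0 of 28 tested members had a limma adjusted p under 0.05 (0.154% of 14265 genes in either direction), and 4 had an unadjusted p under 0.05 (11.7% of all genes). They were Sorl1 (0.29) and Ptk2b (0.27, SE 0.11, limma adjusted p = 0.359), which were higher in Hdac1 cKO mice, and Adam17 (-0.34, SE 0.14, limma adjusted p = 0.370) and Cd2ap (-0.37, SE 0.16, limma adjusted p = 0.399), which were lower. Ptk2b was at 72.6, 77.9, 66.0 and 81.9 FPKM in control mice and 75.0, 82.8, 92.4, 109.3 and 93.2 FPKM in Hdac1 cKO mice, with overlap. In compound against 5XFAD mice, a comparison with no mouse in common, 0 of 27 members were called (0.00698% of 14326 genes in either direction) and 0 had an unadjusted p under 0.05 (6.61% of all genes). The 4 members gave 0.03, -0.11, 0.05 and -0.13 there, in the order Sorl1, Ptk2b, Adam17 and Cd2ap.

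The signs of the 27 members tested in both Hdac1 comparisons were the same for 44.4%, against 49.7% of 13912 genes. Apoe differed by -0.16 (95% interval -0.38 to 0.06, limma adjusted p = 0.574) in Hdac1 cKO against control mice and by 0.01 (-0.21 to 0.23, adjusted p = 0.982) in compound against 5XFAD mice. Spi1 differed by -0.57 (-1.19 to 0.05, limma adjusted p = 0.476) and -0.01 (-0.50 to 0.49, adjusted p = 0.997). In the Hdac1 cKO hippocampus all 8 markers of the choroid plexus were lower, by a median of -2.84, and 9 of the 12 microglia markers were higher, by a median of 0.08. In compound against 5XFAD mice all 8 choroid plexus markers were lower, by a median of -1.265. There 11 of the 12 microglia markers were higher, by a median of 0.28.

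**Figure D4:**
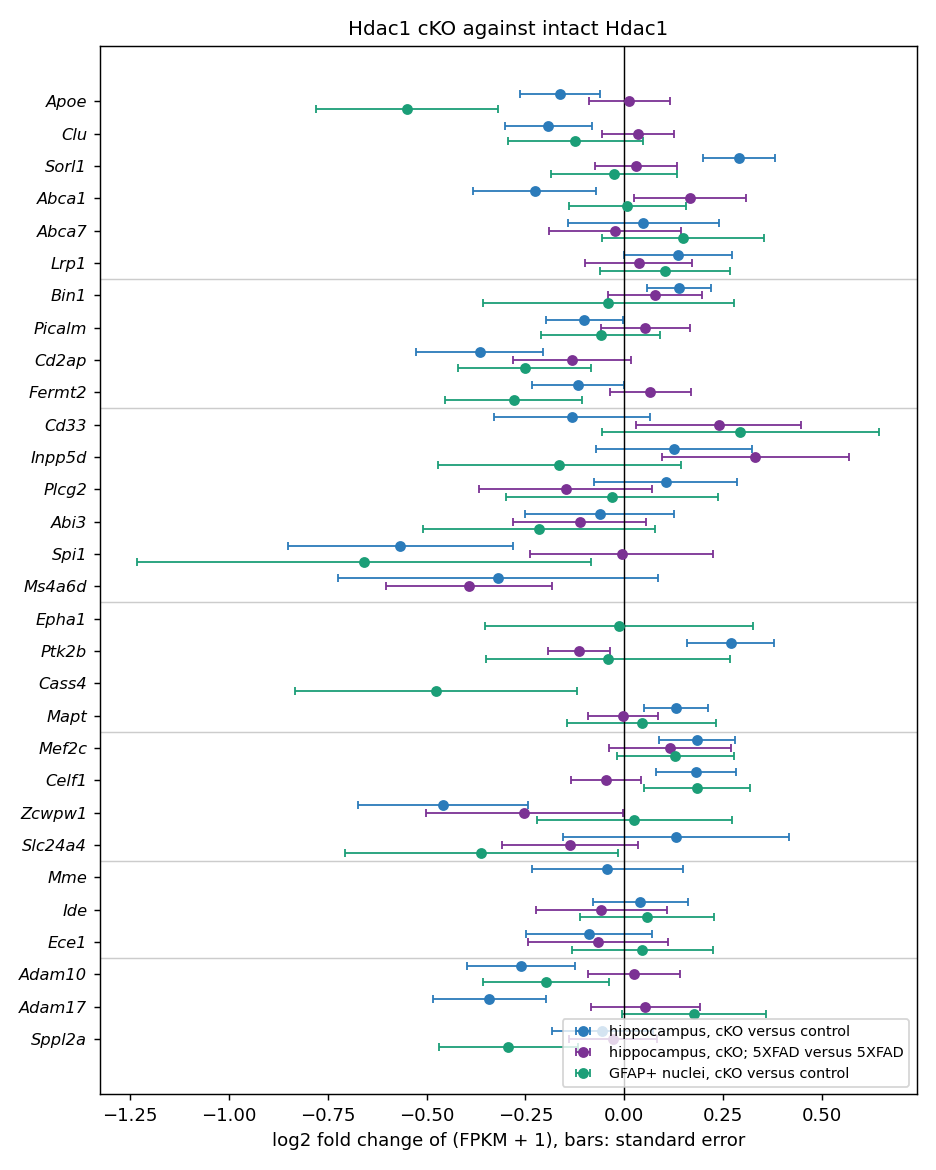
Log2 fold change of FPKM + 1 (points) with its standard error (bars) for the tested members in Hdac1 cKO against control hippocampus (blue), compound against 5XFAD hippocampus (purple) and Hdac1 cKO against control GFAP+ nuclei (green). Grey lines divide the roles, and no member passed an adjusted p under 0.05 in any of the 3 comparisons.

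The mean effect of Hdac1 loss over both 5XFAD genotypes, added after the data were seen, called 0 of 27 members (0.0278% of 14389 genes in either direction), with 2 at an unadjusted p under 0.05 (9.38% of all genes), Sorl1 (0.16, SE 0.067) and Cd2ap (-0.25, SE 0.11). The interaction of Hdac1 loss and 5XFAD called 0 of 27 members and 0% of 14389 genes by limma, with 2 members at an unadjusted p under 0.05, Ptk2b and Adam17 (8.97% of all genes).

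In GFAP+ nuclei the libraries cover whole transcripts, so levels can be set beside each other per length. Astrocyte markers summed to between 3181 and 3905 FPKM, neuron markers to between 214.3 and 320.3, microglia markers to between 60.96 and 176.7 and oligodendrocyte markers to between 457 and 1248, and no marker was at 0 in all libraries. Apoe was the most abundant member, with a mean of 8118 ± 1094 FPKM in control nuclei (SD, n = 3), followed by Clu at 1000.0 ± 145.1, Fermt2 at 246.5 ± 45.8, Mapt at 66.1 ± 17.6, Bin1 at 48.3 ± 14.6 and Lrp1 at 48.1 ± 10.2. The last 3 did not differ beyond their spread. Abca1 (26.9 ± 1.79), Celf1 (25.2 ± 1.66), Ece1 (19.5 ± 2.04), Sorl1 (18.1 ± 1.38) and Adam10 (15.6 ± 1.20) came next, and Mme was at 0.109 ± 0.173 FPKM.

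**Figure D5:**
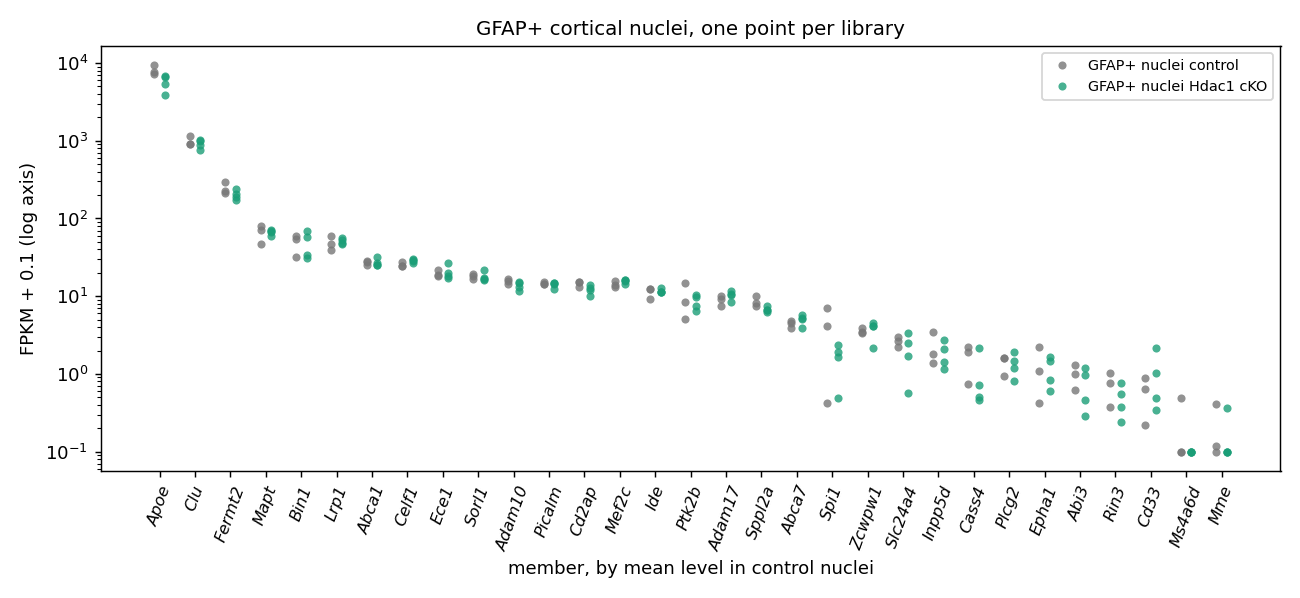
FPKM + 0.1 on a log axis in each of the 7 libraries of GFAP+ cortical nuclei for the 31 listed members, ordered by their mean in control nuclei (grey, 3 libraries), with Hdac1 cKO nuclei in green (4 libraries). Apoe and Clu lead, and the immune members lie at the lower end with wide scatter between libraries.

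Apoe was at 7710, 9357 and 7286 FPKM in control nuclei and at 5437, 3848, 6568 and 6742 FPKM in Hdac1 cKO nuclei, so every Hdac1 cKO library lay below every control library. The log2 difference was -0.55 (SE 0.23, limma adjusted p = 0.984, unadjusted p = 0.0376, exact permutation p = 0.0571, where 0.0286 is the smallest that 4 against 3 allow). It was the only one of 28 tested members with an unadjusted p under 0.05 (4.7% of 15070 genes), and 0 of 28 had an adjusted p under 0.05 (0.0133% of all genes). Clu was at 911.6, 1167 and 921.2 FPKM in control nuclei and 886.7, 760.3, 1024 and 999.1 FPKM in Hdac1 cKO nuclei, with overlap (log2 difference -0.12, 95% interval -0.50 to 0.25). Sppl2a did not overlap between the groups either (7.41 to 9.86 FPKM in control and 6.23 to 7.41 FPKM in Hdac1 cKO nuclei, log2 difference -0.29, SE 0.18, limma adjusted p = 0.984).

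Some members are expressed in other cells that the sort can hold. Bin1 was at 31.7, 59.4 and 53.7 FPKM in control nuclei and 30.8, 34.0, 68.7 and 58.5 FPKM in Hdac1 cKO nuclei, and the oligodendrocyte markers of the same libraries summed to 641.7, 1248, 852.8, 457, 568.4, 1139 and 1119 FPKM. Spi1 was at 0.323, 4.08 and 6.95 FPKM in control nuclei and 0.390, 1.57, 2.23 and 1.81 FPKM in Hdac1 cKO nuclei, where the microglia markers summed to 84.9, 176.7, 141.5, 63.7, 60.96, 164.6 and 167.2 FPKM. The libraries with the lowest marker sums held the lowest values of both genes, and the part of those cells in the values was not tested. Bin1 differed by -0.04 between the groups (95% interval -0.76 to 0.67) and Spi1 by -0.66 (-1.96 to 0.64).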

How the data were processed

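RNA of 20 hippocampi and 7 sets of GFAP+ cortical nuclei was analysed, 27 libraries of the 34 samples. The ChIP samples and 1 control library of nuclei were not analysed here. The deposited values are FPKM, which the authors made per library: hippocampal RNA was read with a 3′ digital gene expression kit, aligned with TopHat to mm9 and quantified with Cufflinks 2.0.0, and RNA of the nuclei was amplified with a full-length SMART-Seq kit. The aligner for the nuclei and the use of strand are not given in the sources used here. FPKM hold no counts, so fragments were inferred only for 13 low members, as whole multiples (within 0.12) of the step between low values, and relative depth was taken from the same steps.

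Values were tested as log2(FPKM + 1) by limma (version 3.58.1, R version 4.3.3) using a variance trend and robust estimation. Genes averaging under 0.5 FPKM over the libraries compared were left out, and p-values were adjusted by Benjamini-Hochberg over all of them. The test used by the authors is not named in the sources used here. Single genes were also compared by exact permutation tests over mice, all of them two-sided. Figures and summaries used Python 3.11.15. The scripts were tested on simulated data.

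The members and lists were chosen with earlier results of these data known. A member was given in full where it passed an adjusted p under 0.05, or a fold change of 1.5 in FPKM + 1 with p under 0.05, in any comparison, or defined its role (Apoe, Clu, Sorl1, Bin1, Mapt, Mme, Ide, Adam10, Lrp1). At most 5 other pathway genes were named per comparison, by size of change. Alternatives were the pseudocount, the filter, scaling, limma without trend and robust estimation, a replicate block, all hippocampal groups in 1 fit, the looser thresholds and each library left out.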

Additional observations from a re-analysis of the deposited data

Results flagged for a closer look

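In groups of 4 to 6 libraries, the highest or lowest value of a member, or of the summed microglia markers, was set against the others by Dixon's test. It stood apart in 17 of 159 groups, 10.7%, where chance alone gives about 1 in 20, so single cases carry little weight. Values below are FPKM.

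Compound mouse 4 was high for Apoe, at 7357 against 4973 to 5605 in the other compound mice, and for Clu, at 1546 against 1145 to 1196. Of the hippocampal libraries, the same library had the highest sums of microglia (1229 FPKM), oligodendrocyte (2073 FPKM) and astrocyte markers (1338 FPKM). The part of these cells in these values was not tested. It was also high for Cass4, at 0.4398 against 0 to 0.1188. Without it, Apoe differed by 0.51 on the log2 scale between compound and Hdac1 cKO mice.

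Among the immune members, Plcg2 was high in control mouse 3, at 0.9214 against 0.3419 to 0.3746, and low in compound mouse 2, at 0.2174 against 1.07 to 1.337. Ptk2b was low in 5XFAD mouse 3, at 77.44 against 84.93 to 88.68. Lrp1 and Mme were high in Hdac1 cKO mouse 3, at 4.98 against 3.804 to 4.082 and at 0.931 against 0.4803 to 0.5671.

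Some flagged members were read from few fragments or listed at 0 in most libraries. Epha1 reached 0.134 in 5XFAD mouse 2 and 0.3689 in compound mouse 5, Cass4 reached 0.08304 in 5XFAD mouse 3, and Rin3 reached 0.1388 in Hdac1 cKO mouse 4, the only library of that group not at 0.

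In GFAP+ nuclei of Hdac1 cKO mice, library 1 was low for Picalm, at 12.2 against 14.38 to 14.74, and high for Ide, at 12.71 against 11.07 to 11.13. Library 2 was high for Cass4, at 2.036 against 0.3671 to 0.6286. Library 3 alone listed Mme above 0, at 0.2629, and library 4 was high for Sorl1, at 21.69 against 15.93 to 16.86.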

How the results depend on the processing

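Counts are members at a limma adjusted p under 0.05, and no 5XFAD difference of Apoe, Clu, Spi1, Inpp5d, Abi3 or Cd33 that passed either threshold changed sign under these alternatives. In 5XFAD against control mice the count of 1 became 2 under the looser thresholds and 0 without the filter on low FPKM, without trend and robust estimation, with a replicate block and with all 4 groups in 1 fit, and it was 0 to 1 with each mouse left out. In compound against control mice the count of 0 became 2 under the looser thresholds, 1 with quantile normalization and 1 with all 4 groups in 1 fit, and was 0 to 1 with each mouse left out. In compound against Hdac1 cKO mice the count of 3 became 0 without the filter and 1 with a replicate block, which left Spi1, was 2 with quantile normalization (Apoe lost) and 2 without trend and robust estimation (Apoe and Clu lost, 1 other member gained), and was 1 to 5 with each mouse left out. The mean 5XFAD effect, whose alternatives were added after the data were seen, went from 5 to 3 under the looser thresholds, and Inpp5d lost its call without the filter (adjusted p = 0.0754) and with a replicate block (0.0824). The causes of these changes were not tested. The replicate numbers do not pair the mice: same-numbered libraries correlated at -0.113 to 0.0778 and 0 pairs passed 0.1. Few fragments limit Spi1, Cd33, Abi3, Rin3 and Mme.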
